A study of Mus musculus with 35 samples.

Results

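Regulators of G-protein signalling (RGS) were described in the striatum of mice with and without the *Htt* Q111 allele and with and without *Hdac2* in medium-spiny neurons (MSNs). The set has 10 genes, *Rgs9*, *Rgs7*, *Rgs7bp*, *Rgs4*, *Rgs8*, *Rgs16*, *Rgs2*, *Rgs14*, *Rgs10* and *Rgs20*, chosen by name as RGS genes or partners with a place in striatal signalling. The choice was made with earlier results of these data known. They are 10 of the 39109 entries of the count table, and of the 32863 genes left after spike-ins, short genes and mitochondrial rRNA genes were taken out. Each of the 10 passed the filter on low counts in every comparison. RGS proteins speed up the hydrolysis of GTP by G protein alpha subunits and so shorten the signal of an activated receptor. In MSNs, the main neurons of the striatum, dopamine, adenosine, opioid, muscarinic and cannabinoid receptors act through such G proteins on adenylyl cyclase and on ion channels, and the long brain form of RGS9, bound to Gβ5 and anchored by R7BP, is among the best known striatal RGS proteins.

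The study deposited RNA-seq counts of 35 striatal libraries, each from a different mouse aged 21.7 to 23 weeks. In the *Htt* Q111 allele a long CAG repeat replaces the short one of mouse huntingtin, and carriers here had 1 copy. The *Hdac2* KO mice were homozygous for a floxed *Hdac2* allele and carried the D9-Cre transgene, in which the promoter of *Ppp1r1b* drives Cre in MSNs. The comparisons ask what each genotype changes in the striatum and whether loss of *Hdac2* alters the response to the repeat. The groups were 8 *Htt*+/+ *Hdac2* WT mice (5 males, 3 females), 7 *Htt* Q111/+ *Hdac2* WT mice (4 males, 3 females), 9 *Htt*+/+ *Hdac2* KO mice (5 males, 4 females), and, as the largest group, 11 *Htt* Q111/+ *Hdac2* KO mice (8 males, 3 females). No *Hdac2* WT mouse carried Cre, so Cre and the deletion cannot be told apart. The *Hdac2* WT mice were also homozygous for the floxed allele, apart from 2 *Htt*+/+ *Hdac2* WT mice with 1 floxed copy. Cells other than MSNs kept *Hdac2*. The mouse IDs fall into series V, A and Z. Among carriers of the Q111 allele the repeat had 131 to 144 CAG units in series V and 110 to 118 in series A and Z, so repeat length and ID series cannot be told apart. RNA extraction dates nearly followed the *Hdac2* genotype. Libraries held 50970712 to 77867348 counts on genes.

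Contrasts 1 and 2 set *Hdac2* KO against *Hdac2* WT in *Htt*+/+ and in *Htt* Q111/+ mice. Contrasts 3 and 4 set *Htt* Q111/+ against *Htt*+/+ in *Hdac2* WT and in *Hdac2* KO mice. Contrast 5 set mice with both changes, *Htt* Q111/+ *Hdac2* KO, against those with neither. The average effect of each genotype is the mean of its 2 contrasts, and the interaction is contrast 4 minus contrast 3. Both come from a separate joint fit, so they can differ slightly from values worked out from the single contrasts. Contrasts 1, 3 and 5 share the *Htt*+/+ *Hdac2* WT libraries, and other contrasts share groups as well, so their values stand side by side and do not support each other. Levels are CPM, counts relative to the library total scaled by TMM, and differences are log2 fold changes ± standard error (SE) from edgeR's quasi-likelihood test, with p adjusted across every tested gene (Benjamini-Hochberg). A gene is called changed at an adjusted p under 0.05.

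The targeted gene was examined first. *Hdac2* (ENSMUSG00000019777, chromosome 10, 36974544 to 37001611 in GRCm38) had 97.6 to 107 CPM (median 104) in *Htt*+/+ *Hdac2* WT, 95.6 to 111 CPM (median 105) in *Htt* Q111/+ *Hdac2* WT, 89.4 to 99.2 CPM (median 94.4) in *Htt*+/+ *Hdac2* KO and 89.8 to 101 CPM (median 95.5) in *Htt* Q111/+ *Hdac2* KO libraries. The medians were lower in both KO groups, and the ranges overlapped. Its log2 fold change was −0.09 ± 0.03 (adjusted p = 0.0552) in contrast 1 and −0.12 ± 0.03 (adjusted p = 0.00198) in contrast 2. Whole-gene counts include exons outside the floxed part and RNA of cells without Cre, so they check the labels only weakly. The paper itself reports depleted reads in the floxed exons, and Cre transcripts, in the *Hdac2* KO mice. For the label of striatum 12 MSN markers were examined, of which 0 were at 0 in any group. Detection alone does not check the tissue, as cortical and choroid plexus markers were not at 0 either. The summed level of the MSN markers had a mean of 10440 CPM in *Htt*+/+ *Hdac2* WT mice, with *Penk* as the most abundant gene. The sum of 12 cortical markers had a mean of 213 CPM in the same mice.

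The members covered a wide range of levels. Per kb of merged exon length, in *Htt*+/+ *Hdac2* WT libraries (mean ± SD, n = 8), *Rgs4* was highest with 409 ± 64.4 CPM, before *Rgs9* with 132 ± 6.30 CPM and *Rgs7bp* with 98.7 ± 9.82 CPM. *Rgs2* had 69.7 ± 11.4 CPM per kb and *Rgs8* 37.1 ± 3.16 CPM per kb. *Rgs10* (27.3 ± 2.49), *Rgs14* (21.1 ± 1.81) and *Rgs20* (20.6 ± 2.69) followed in CPM per kb, and the last 2 of these did not differ beyond their spread. *Rgs7* had 6.64 ± 0.358 CPM per kb, and *Rgs16* was lowest with 1.48 ± 0.314 CPM per kb. Because the table gives 1 interval per gene, which may bring in introns, the order depends on the length used. Per kb of gene span only *Rgs4*, again the highest, kept its place among the 10, and *Rgs7*, which spans 431395 nt, was then lowest with 0.0926 CPM per kb. In *Rgs10* and *Rgs20*, other entries of the table overlap the gene, with mean counts of 15 and of up to 19 per library, against 2396 for *Rgs10* and 4461 for *Rgs20*.

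**Figure D1:**
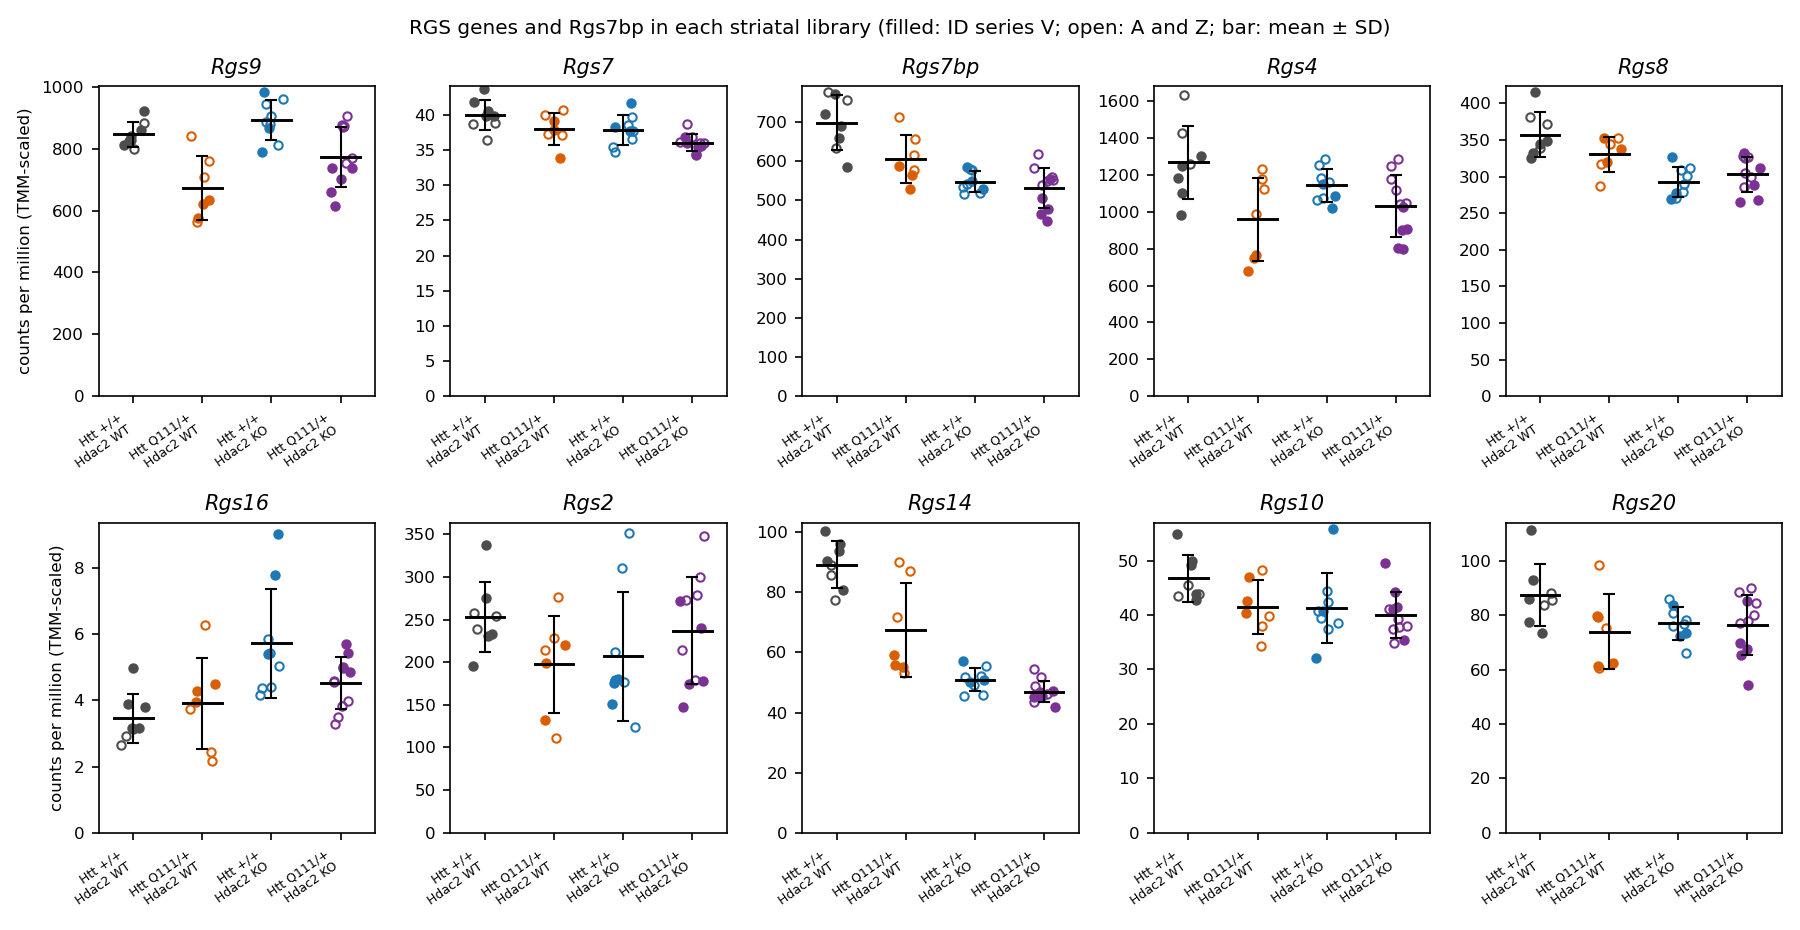
TMM-scaled CPM (y axis, from 0) of the 10 genes in each of the 35 libraries by genotype group (x axis), with filled points for ID series V, open points for series A and Z, and bars for mean ± SD. *Rgs14* libraries of *Htt*+/+ *Hdac2* KO mice lie at 45.6 to 57.2 CPM, below the 77.5 to 100.3 CPM of *Htt*+/+ *Hdac2* WT mice.

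The R7 group was taken first. *Rgs9* (ENSMUSG00000020599, chromosome 11, 109225355 to 109298106) encodes the striatum-enriched RGS protein that acts on Gαi and Gαo downstream of dopamine and opioid receptors, and its counts do not separate the brain form from the retinal one. It had 799.6 to 922 CPM (median 835) in *Htt*+/+ *Hdac2* WT and 562 to 842 CPM (median 633) in *Htt* Q111/+ *Hdac2* WT libraries. In *Hdac2* KO mice it had 788 to 981 CPM (median 887) with *Htt*+/+ and 614 to 906 CPM (median 754) with *Htt* Q111/+. Of the 7 *Htt* Q111/+ *Hdac2* WT libraries 6 lay below all *Htt*+/+ *Hdac2* WT libraries, and of the 11 *Htt* Q111/+ *Hdac2* KO libraries 7 lay below all *Htt*+/+ *Hdac2* KO libraries, so both pairs of groups overlapped. The log2 fold change in contrast 3 was −0.26 ± 0.05 (adjusted p = 0.0177). *Rgs9* was the 1 member called in contrast 3, in which 0.403% of all genes tested were called and 0.222% were called lower. In contrast 4 its log2 fold change was −0.14 ± 0.04 (p = 0.00188, adjusted p = 0.270 by edgeR), past the nominal threshold only. *Rgs9* is among the genes that the study chose on these samples, so its fall is not independent evidence.

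The average effect of the Q111 allele on *Rgs9* was −0.20 ± 0.03 on the log2 scale (adjusted p = 0.00123). It was again the 1 member called, where 1.27% of all genes were called and 0.836% were called lower, whereas DESeq2 called 2 members, *Rgs9* and *Rgs4*, and 367 of 17346 genes against 220 in edgeR. Within series V the average effect was −0.41 (adjusted p = 0.000162), and within series A and Z it was −0.16 (adjusted p = 0.943). The interaction was 0.12 ± 0.07 (p = 0.0728, adjusted p = 0.881 by edgeR), so a different effect of the allele in *Hdac2* KO mice was not shown. For *Hdac2* KO, *Rgs9* had −0.03 ± 0.06 in contrast 1, 0.09 ± 0.05 in contrast 2 and 0.03 ± 0.04 on average, none of them called. It became a call, with a positive value, in 2 of 14 alternatives of contrast 2 and 2 of 13 of the average. The call in contrast 3 was lost in males only (−0.29, adjusted p = 0.0618) and with the replicate block (−0.33, adjusted p = 0.106). It was lost with only the groups compared in the fit (−0.22, adjusted p = 0.243), where 0 of 17133 genes were called. Without the 3 libraries highest in cortical markers, chosen after seeing the data, it was lost as well (−0.26, adjusted p = 0.0663). All of these values had the same sign. Within series V the log2 fold change was −0.49 (adjusted p = 0.00123) and within series A and Z it was −0.22 (adjusted p = 0.710). The library with the lowest *Rgs9* level in its group, *Htt* Q111/+ *Hdac2* WT replicate 7, belongs to series A and Z and had the highest cortical marker sum of all libraries.

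MSN markers moved in the same comparisons as *Rgs9*. Of 12 MSN markers 4 were called lower and 0 higher in contrast 3, and 7 were called lower and 0 higher for the average effect of the Q111 allele. Their summed level had means of 10440 and 8284 CPM in *Hdac2* WT mice without and with the Q111 allele, and 10190 and 8942 CPM in *Hdac2* KO mice without and with it. *Penk* was the most abundant of them in each group, and none was at 0. In bulk tissue, fewer cells of a type and less RNA per cell cannot be told apart, and the part of either in the *Rgs9* result was not tested.

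*Rgs7bp* (ENSMUSG00000021719, chromosome 13, 104947153 to 105054930) has no RGS domain and encodes the palmitoylated protein that holds R7 complexes at the membrane. Its level was 585 to 776 CPM (median 705) in *Htt*+/+ *Hdac2* WT and 516 to 584 CPM (median 543) in *Htt*+/+ *Hdac2* KO libraries. With the Q111 allele it was 529.9 to 712 CPM (median 587) in *Hdac2* WT and 448 to 618 CPM (median 549) in *Hdac2* KO libraries. All 9 *Htt*+/+ *Hdac2* KO libraries lay below all 8 *Htt*+/+ *Hdac2* WT libraries, by a margin of less than 1 CPM, whereas 4 of 11 *Htt* Q111/+ *Hdac2* KO libraries lay below all *Htt* Q111/+ *Hdac2* WT libraries. Such separation in contrast 1 was seen for 4.64% of all genes and for 2 members, *Rgs7bp* and *Rgs14*. For *Rgs7bp* it depended on the scaling, since with TMM factors from all genes, without the filter on low counts, the lowest WT value was 582.4 and the highest KO value 584.5 CPM. The log2 fold change of *Rgs7bp* was −0.29 ± 0.07 (adjusted p = 0.00329) in contrast 1 and −0.19 ± 0.06 (adjusted p = 0.0327) in contrast 2. Its average *Hdac2* KO effect was −0.24 ± 0.05 (adjusted p = 0.000815). Within series V and within series A and Z the average effect was −0.26 and −0.29, both called. With extraction date instead of surrogate variables the call was lost, with −0.14 (adjusted p = 0.445), as were those in contrasts 1 (−0.23) and 2 (−0.06). The call in contrast 2 was also lost within each series, with no filter on low counts and without the 3 libraries highest in cortical markers, at values of −0.18 to −0.19.

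*Rgs7*, the third member of the R7 group here, binds the same Gβ5 partner and was nearly flat. It ranged from 33.9 to 43.6 CPM over all 4 groups, with medians of 39.8, 37.9, 37.7 and 36.1 CPM in the order of the groups above. The interval of its log2 fold change was −0.13 to 0.06 in contrast 1, and in contrast 3 it was −0.14 to 0.03, so a change of the size seen for *Rgs9* lies outside the second. No contrast called it, and in contrast 5 its −0.10 ± 0.05 (adjusted p = 0.119) became a call in 7 of 14 alternatives. Of the other R7 partners, 3 of 4 were tested. *Gnb5*, which encodes the Gβ5 subunit that R7 proteins need for stability, was lower with the Q111 allele on average. Its log2 fold change was −0.17 ± 0.04 (adjusted p = 0.0197). This call was lost within series A and Z (−0.07), where 0 of 17735 genes were called, and in 2 other alternatives. In contrasts 1 and 2, 0 of the 3 were called by edgeR in either direction, with 1 and 0 at a nominal p under 0.05.

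**Figure D2:**
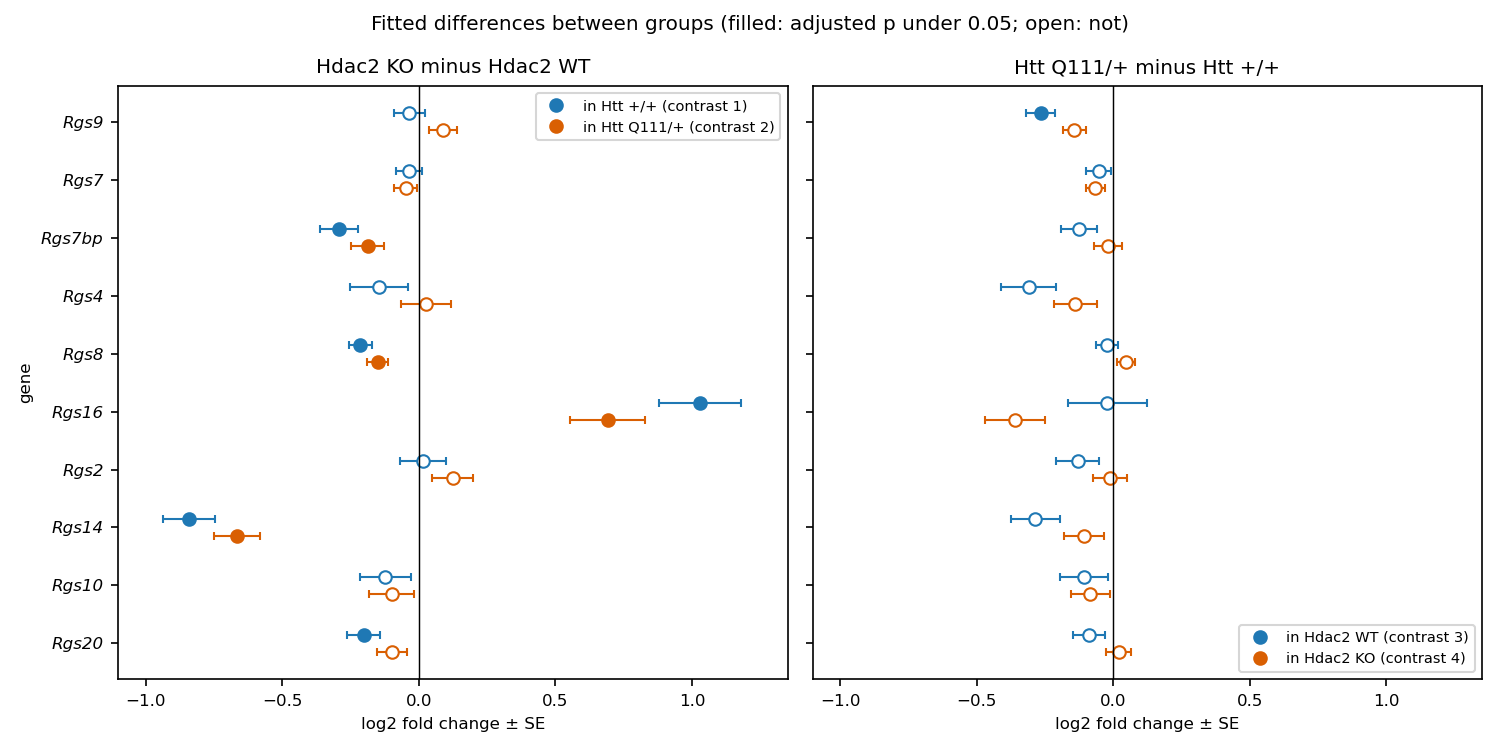
Log2 fold changes ± SE (x axis) of the 10 genes (y axis) for *Hdac2* KO minus *Hdac2* WT on the left and for *Htt* Q111/+ minus *Htt*+/+ on the right, with filled points for an adjusted p under 0.05. *Rgs14* is lowest on the left with −0.84 in contrast 1, and *Rgs16* is highest there with 1.03.

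The small RGS proteins of the R4 group came next. *Rgs4* (ENSMUSG00000038530, chromosome 1, 169741477 to 169747623) acts on Gαi, Gαo and Gαq, and its mRNA is known to respond to dopamine. Its level was 984 to 1635 CPM (median 1253) in *Htt*+/+ *Hdac2* WT and 682 to 1230 CPM (median 986) in *Htt* Q111/+ *Hdac2* WT libraries. In *Hdac2* KO mice it was 1022 to 1289 CPM (median 1153) with *Htt*+/+ and 798 to 1285 CPM (median 1041) with *Htt* Q111/+. Only 3 of 7 *Htt* Q111/+ *Hdac2* WT libraries lay below all *Htt*+/+ *Hdac2* WT libraries, and these 3 were the ones of series V. The log2 fold change in contrast 3 was −0.31 ± 0.10 (p = 0.00419, adjusted p = 0.205 by edgeR), not a call, and the average effect of the allele was −0.23 ± 0.06 (adjusted p = 0.0699). Contrast 5 called *Rgs4* with −0.28 ± 0.10 (adjusted p = 0.0366), a call lost with extraction date (−0.05), in males only (−0.28) and without the 3 libraries highest in cortical markers (−0.29). Within series V, contrast 3 gave −0.67 (adjusted p = 0.000566), and within series A and Z −0.35 (adjusted p = 0.534).

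The level of *Rgs4* was also set out by series, with no test of the difference. In *Htt*+/+ *Hdac2* WT mice the mean was 1164 ± 126 CPM (SD, n = 5) in series V and 1441 ± 189 CPM (SD, n = 3) in series A and Z, and in *Htt*+/+ *Hdac2* KO mice it was 1087 ± 65.5 CPM (SD, n = 3) and 1171 ± 92.0 CPM (SD, n = 6), with overlap of the series in both groups. In *Htt* Q111/+ *Hdac2* WT mice it was 733 ± 45.5 CPM (SD, n = 3) in series V and 1129 ± 105 CPM (SD, n = 4) in series A and Z. In *Htt* Q111/+ *Hdac2* KO mice it was 887 ± 91.8 CPM (SD, n = 5) and 1154 ± 103 CPM (SD, n = 6), with no overlap of the series. The 3 *Hdac2* WT carriers of series V lay below each of the other 12 *Hdac2* WT libraries. *Rgs9* showed the same order in *Hdac2* WT carriers, with 609 ± 30.8 CPM (SD, n = 3) in series V and 718 ± 118 CPM (SD, n = 4) in series A and Z. In *Hdac2* KO carriers it had 690 ± 53.2 CPM (SD, n = 5) and 841.5 ± 63.4 CPM (SD, n = 6). The order was not the same in *Htt*+/+ *Hdac2* WT mice, where the means were 852 and 837 CPM. Whether the longer repeats of series V or another trait of that series goes with these values cannot be told apart.

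**Figure D3:**
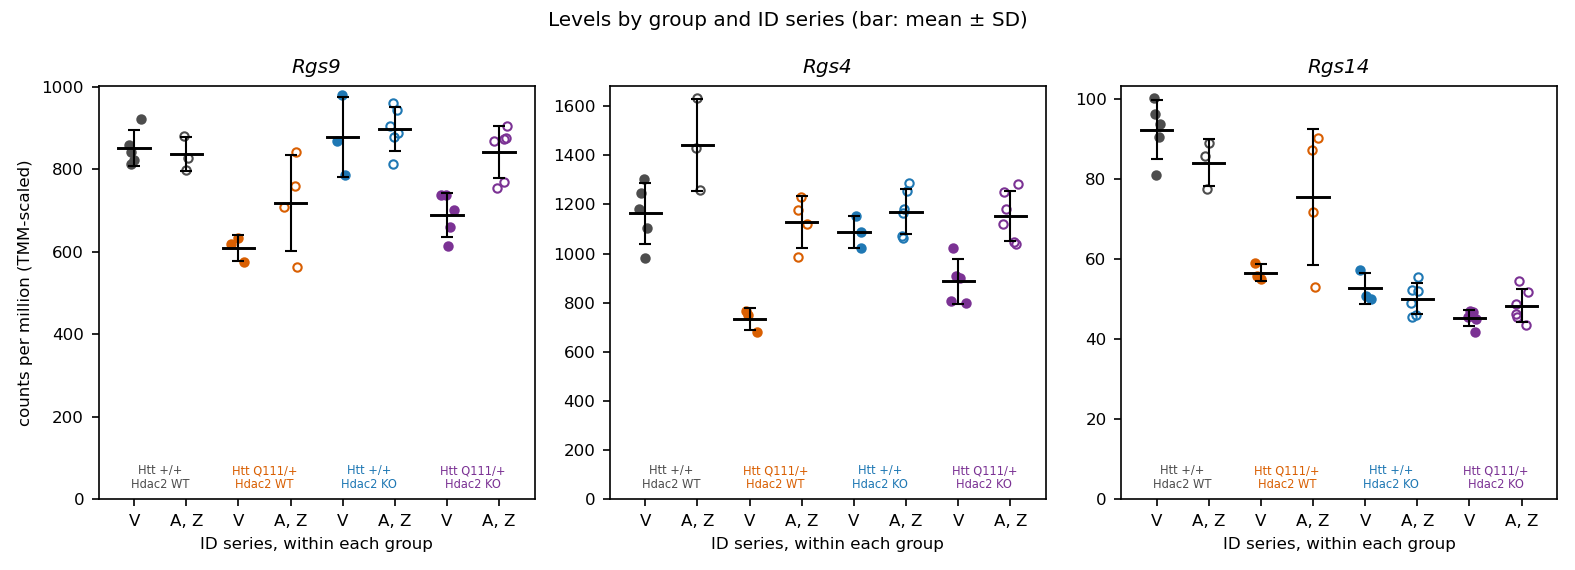
TMM-scaled CPM (y axis, from 0) of *Rgs9*, *Rgs4* and *Rgs14* in each library by genotype group and ID series (x axis), with bars for mean ± SD. In series V the *Rgs4* level of *Htt* Q111/+ *Hdac2* WT mice has a mean of 733 CPM against 1164 CPM in *Htt*+/+ *Hdac2* WT mice.

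*Rgs8* (ENSMUSG00000042671, chromosome 1, 153653025 to 153697667) acts on Gαi and Gαo and is known for its expression in striatum and Purkinje cells. It had 325 to 416 CPM (median 347) in *Htt*+/+ *Hdac2* WT and 269 to 327 CPM (median 289.8) in *Htt*+/+ *Hdac2* KO libraries. The levels with the Q111 allele were 287 to 353 CPM (median 338) in *Hdac2* WT and 265 to 332 CPM (median 305) in *Hdac2* KO libraries. All but 1 of the 9 *Htt*+/+ *Hdac2* KO libraries lay below all *Htt*+/+ *Hdac2* WT libraries, and 3 of 11 did in the Q111 background, where the groups overlapped widely. The log2 fold change was −0.21 ± 0.04 (adjusted p = 0.000493) in contrast 1 and −0.15 ± 0.04 (adjusted p = 0.00531) in contrast 2. With extraction date in the fit, contrast 1 gave −0.25 (adjusted p = 0.138) and contrast 2 −0.10 (adjusted p = 0.701). The call in contrast 2 was also lost without surrogate variables (−0.13, adjusted p = 0.102), with sex in their place, with the ID series, with the replicate block, with no filter on low counts and within each series alone. Contrasts 3 and 4 gave −0.02 ± 0.04 and 0.05 ± 0.03.

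*Rgs16* (ENSMUSG00000026475, chromosome 1, 153740349 to 153745468) encodes a palmitoylated RGS protein of Gαi and Gαq and was the 1 member called higher with *Hdac2* KO. Its counts were low, with 124 to 524 per library, and fewer fragments if mates were counted separately. The level was 2.66 to 4.97 CPM (median 3.16) in *Htt*+/+ *Hdac2* WT and 4.17 to 9.04 CPM (median 5.40) in *Htt*+/+ *Hdac2* KO libraries. With the Q111 allele it was 2.18 to 6.29 CPM (median 3.95) in *Hdac2* WT and 3.27 to 5.72 CPM (median 4.60) in *Hdac2* KO libraries. In *Htt*+/+ mice 6 of 9 KO libraries lay above all WT libraries, whereas in *Htt* Q111/+ mice 0 of 11 did, since the WT group held the highest value. The log2 fold change was 1.03 ± 0.15 (adjusted p = 8.56e-06) in contrast 1 and 0.69 ± 0.14 (adjusted p = 0.000494) in contrast 2, and the average effect was 0.87 ± 0.11 (adjusted p = 6.11e-07). Part of these values depended on the surrogate variables. Without them contrast 2 gave 0.21 (adjusted p = 0.465) and the average effect 0.47 (adjusted p = 0.00233), and with extraction date contrast 1 gave 0.39 (adjusted p = 0.373) and contrast 2 reversed to −0.15 (adjusted p = 0.826). Within series A and Z the average effect was 0.43 (adjusted p = 0.0606), and within series V it was 0.62 (adjusted p = 0.00109).

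*Rgs8* and *Rgs16* are neighbours on chromosome 1, with 42681 bases and 0 genes of the table between them, and 6 of the 10 members lie on this chromosome. The pair moved in opposite directions with *Hdac2* KO, with −0.18 ± 0.03 for *Rgs8* and 0.87 ± 0.11 for *Rgs16* as average log2 fold changes. In contrast 4, *Rgs16* had −0.36 ± 0.11 (p = 0.00263, adjusted p = 0.285 by edgeR), not a call.

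*Rgs2* (ENSMUSG00000026360, chromosome 1, 143999338 to 144004121) prefers Gαq and is known as a gene that neuronal activity induces. It was the member with the widest spread within groups among those above 10 CPM, from 111 to 352 CPM over all libraries. The coefficient of variation was 16.4% and 29.1% in *Hdac2* WT mice without and with the Q111 allele and 36.4% and 26.6% in *Hdac2* KO mice, against 3.37% to 5.93% for *Rgs7*. All groups overlapped. No comparison called *Rgs2*. In contrast 1 the interval of its log2 fold change ran from −0.15 to 0.18, and with only the groups compared in the fit the value was −0.34 (adjusted p = 0.0285), a reversed sign. The 14 alternatives ran from −0.59 to 0.12. The KO group mean was 18.2% lower, with 6 of 9 KO libraries below all WT libraries and 1 above all.

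*Rgs14* (ENSMUSG00000052087, chromosome 13, 55369732 to 55384686) is a scaffold of the R12 group that binds Ras and Rap as well as G proteins and is known from hippocampal area CA2. It showed the largest fall of the 10 members with *Hdac2* KO. Its level was 77.5 to 100.3 CPM (median 89.8) in *Htt*+/+ *Hdac2* WT and 45.6 to 57.2 CPM (median 50.8) in *Htt*+/+ *Hdac2* KO libraries. With the Q111 allele it was 53.1 to 90.1 CPM (median 59.0) in *Hdac2* WT and 41.8 to 54.5 CPM (median 46.3) in *Hdac2* KO libraries. All 9 *Htt*+/+ *Hdac2* KO libraries lay below all 8 *Htt*+/+ *Hdac2* WT libraries, and 10 of 11 *Htt* Q111/+ *Hdac2* KO libraries lay below all 7 *Htt* Q111/+ *Hdac2* WT libraries. The log2 fold change was −0.84 ± 0.10 (adjusted p = 1.31e-07) in contrast 1 and −0.67 ± 0.08 (adjusted p = 9.68e-07) in contrast 2. The average effect was −0.75 ± 0.07 (adjusted p = 1.56e-09), and it passed the threshold in each of the 13 alternatives, between −0.77 and −0.56. With extraction date instead of surrogate variables contrast 2 gave −0.39 (adjusted p = 0.147), and within series V it gave −0.32 (adjusted p = 0.0114) against −0.65 within series A and Z. In contrast 5 the groups did not overlap for *Rgs14* alone among the members, as for 3.23% of all genes.

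*Rgs14* was also lower in part of the Q111 carriers. In contrast 3 the log2 fold change was −0.29 ± 0.09 (p = 0.00327, adjusted p = 0.181 by edgeR), not a call, and 5 of 7 *Htt* Q111/+ *Hdac2* WT libraries lay below all *Htt*+/+ *Hdac2* WT libraries. In series V the means were 92.3 ± 7.32 CPM (SD, n = 5) without and 56.6 ± 2.08 CPM (SD, n = 3) with the allele, and in series A and Z they were 84.1 ± 5.97 CPM (SD, n = 3) and 75.5 ± 17.0 CPM (SD, n = 4). The fitted values were −0.71 (adjusted p = 1.94e-05) within series V and −0.15 (adjusted p = 0.866) within series A and Z. In *Hdac2* KO mice the log2 fold change with the allele was −0.11 ± 0.07, and the interaction of 0.18 ± 0.11 (p = 0.121, adjusted p = 0.894 by edgeR) does not show that the effect differs.

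*Rgs10* and *Rgs20* close the set. *Rgs10*, a short RGS protein of neurons and microglia, ranged from 32.1 to 55.8 CPM over all libraries with medians of 44.7, 40.4, 40.7 and 39.2 CPM in the group order above, and no contrast called it. Its −0.21 ± 0.09 in contrast 5 (adjusted p = 0.0893) became a call in 6 of 14 alternatives. *Rgs20*, a member of the RZ group with a preference for Gαz, had 54.3 to 111 CPM over all libraries with medians of 85.6, 75.4, 76.7 and 77.7 CPM. The log2 fold change of *Rgs20* in contrast 1 was −0.20 ± 0.06 (adjusted p = 0.0168), with 3 of 9 KO libraries below all WT libraries. That call was kept in 5 of 14 alternatives, and without surrogate variables the value was −0.18 (adjusted p = 0.146). In contrast 2 it was −0.10 ± 0.05 (adjusted p = 0.239), and the average effect of −0.15 ± 0.05 (adjusted p = 0.0153) was −0.07 (adjusted p = 0.463) without surrogate variables and reversed to 0.08 (adjusted p = 0.817) with extraction date. This call was kept in 4 of 13 alternatives.

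The members were chosen with earlier results of these data known, so the counts below describe them and do not test RGS genes as a set. Counted over the set, contrast 1 called 5 of 10 members, where 17.8% of all genes were called. Of these, 1 was higher (*Rgs16*) and 4 were lower (*Rgs14*, *Rgs7bp*, *Rgs8* and *Rgs20*), against 9.06% and 8.79% of all genes. Contrast 2 called 4 of 10 (16.5% of all genes), the same genes without *Rgs20*, with 1 higher (7.68%) and 3 lower (8.86%). For the average *Hdac2* KO effect 5 members were called (25.026% of all genes), 1 higher (12.9%) and 4 lower (12.1%). Contrast 5 called 7 members (21.2% of all genes), with *Rgs16* higher (10.2%) and 6 lower (11.002%), which adds *Rgs9* and *Rgs4* to the genes of contrast 1. *Rgs9* had −0.18 ± 0.05 there (adjusted p = 0.0150), a call kept in 9 of 14 alternatives. Its sign turned within series A and Z (0.00855). The median log2 fold change of the 10 members was −0.13 in contrast 1 and −0.07 in contrast 2, against −0.0014 and −0.0044 over all genes. With extraction date instead of surrogate variables the calls fell to 1 in contrast 1, 0 in contrast 2, 1 in contrast 5 and 1 for the average effect, each time *Rgs14*. The calls over all genes fell as well, to 822 of 17126, 331 of 17169, 798 of 17088 and 802 of 17346. Since the dates nearly follow the *Hdac2* genotype, an effect of the date and one of the genotype cannot be told apart in that fit.

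For the Q111 allele, all 10 members had a negative log2 fold change in contrast 3, as had 48.987% of all genes, with a median of −0.12 against 0.0019 over all genes. The sign was not firm for *Rgs16* (−0.02 ± 0.15), whose group mean was 13.0% higher and which was positive in 7 of 14 alternatives, nor for *Rgs7* and *Rgs8*, each positive in 1. Of the 10, 3 (*Rgs9*, *Rgs4* and *Rgs14*) had a nominal p under 0.05, against 10.9% of all genes. In contrast 4 edgeR called 0 members, as it did 0.00584% of all genes, and 2 members (*Rgs9* and *Rgs16*) had a nominal p under 0.05, against 7.52% of all genes. DESeq2 called 0 members there and gave the same nominal count of 2. The interaction had 0 called members in edgeR (0.00577% of all genes), 0 at a nominal p under 0.05 (5.63% of all genes) and 0 called by DESeq2. Sex showed 0 called members in edgeR (0.0807% of all genes), and 1 at a nominal p under 0.05 (8.32% of all genes). This was *Rgs10*, with a log2 fold change of −0.12 ± 0.05 in females against males (adjusted p = 0.548). DESeq2 was not run for sex.

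Next, variation between libraries of the same group was compared between members. Values were log2(CPM + 0.5) minus the group mean over the 35 libraries, with p from 100000 permutations, two-sided, adjusted over 45 pairs. Of these pairs 15 passed, 11 with a positive and 4 with a negative r, and 11 of the 15 had the same sign within series V and within series A and Z. The highest was *Rgs4* with *Rgs7bp*, at Pearson's r = 0.778 (p = 1e-05, the smallest that the permutations can give, adjusted p = 0.00045) and Spearman's rho = 0.785 (p = 1e-05, adjusted p = 0.00045). Without the 2 libraries farthest from the median r was 0.753, and within series V (16 libraries) and series A and Z (19 libraries) it was 0.701 and 0.698. *Rgs8* and *Rgs20* had r = 0.701 (p = 3e-05, adjusted p = 0.000675) and rho = 0.745 (p = 2e-05, adjusted p = 0.00045), with 0.632 without the 2 farthest libraries and 0.696 and 0.832 within the series.

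All 4 negative pairs involved *Rgs16*, and not all were firm. With *Rgs14* r was −0.408 (p = 0.0147, adjusted p = 0.0442, rho = −0.297 with p = 0.0838 and adjusted p = 0.164), but −0.155 without the 2 farthest libraries, 0.126 within series V, −0.713 within series A and Z and −0.311 (adjusted p = 0.169) without *Htt* Q111/+ *Hdac2* WT replicate 7. With *Rgs9* it was −0.509, but 0.027 within series V. The lowest r was −0.565 (p = 0.00034, adjusted p = 0.00369), with *Rgs20*, where rho was −0.585 (p = 0.00029, adjusted p = 0.00217), r without the 2 farthest libraries −0.527, and r within series V and within series A and Z −0.413 and −0.706. *Rgs9* with *Rgs4* had r = 0.573 (p = 0.00025, adjusted p = 0.00369) and rho = 0.596 (p = 0.00016, adjusted p = 0.00153), r = 0.514 without the 2 farthest libraries, but 0.299 and 0.256 within the series. *Rgs2* passed with no other member.

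**Figure D4:**
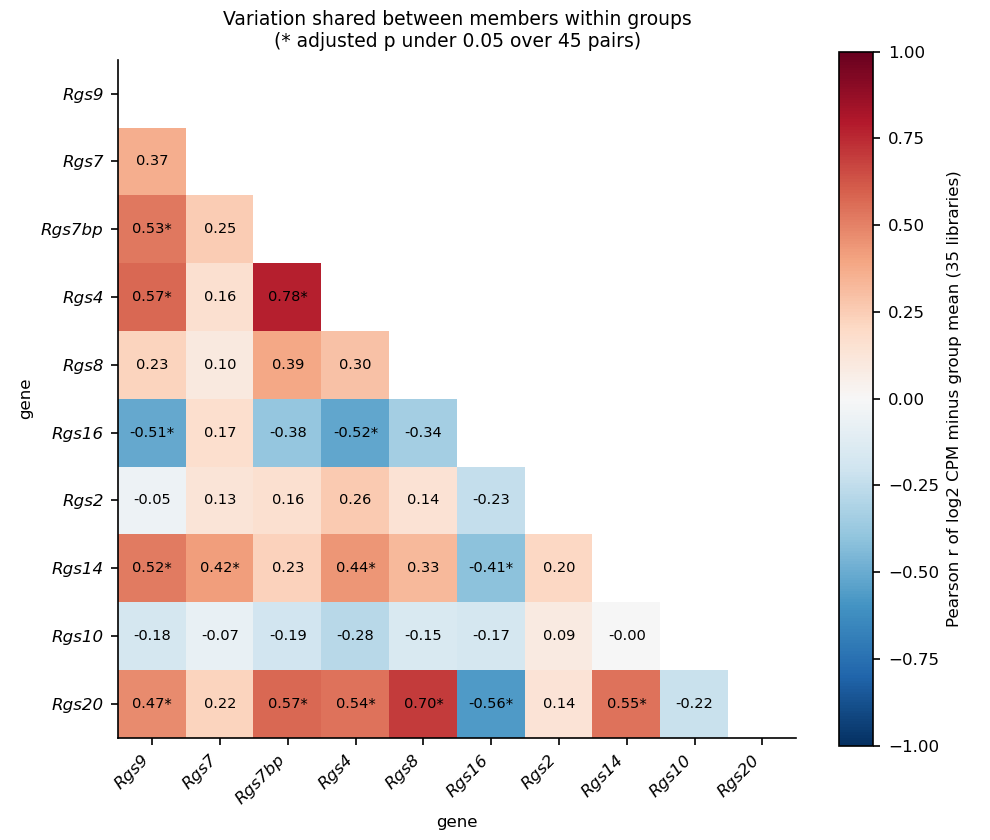
Pearson's r of log2 CPM minus the group mean over 35 libraries for each pair of the 10 genes (both axes), with stars for an adjusted p under 0.05 over 45 pairs. The darkest cell is *Rgs4* with *Rgs7bp* at 0.78, and each starred negative value is in the row or column of *Rgs16*.

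Members were also set against summed marker lists of 6 cell types in the same way, and 20 of 60 relations passed. The MSN list gave r = 0.840 with *Rgs9* (p = 1e-05, adjusted p = 0.00015, rho = 0.860 with p = 1e-05 and adjusted p = 0.0003), with 0.805 without the 2 farthest libraries and 0.710 and 0.821 within series V and within series A and Z. With *Rgs4* it gave r = 0.709 (p = 1e-05, adjusted p = 0.00015, rho = 0.668 with p = 1e-05 and adjusted p = 0.0003), with 0.640 without the 2 farthest libraries and 0.735 and 0.639 within the series. *Rgs14* (r = 0.697), *Rgs7bp* (r = 0.684) and *Rgs20* (r = 0.598) passed as well, as did *Rgs7* (r = 0.428) and, with a negative sign, *Rgs16* (r = −0.482, which did not pass without *Htt* Q111/+ *Hdac2* WT replicate 7, at −0.409). *Rgs14* and *Rgs20* had only 0.258 and 0.103 within series V. *Rgs9* was not related to MSN markers alone over all libraries, as it also passed with the astrocyte (0.550), endothelial (0.503), microglia (0.469) and cortical (−0.507) lists. In series V these were 0.502, 0.169, 0.0854 and −0.418, in the same order. In series A and Z they were 0.128, 0.443, 0.472 and −0.789. *Rgs4* also passed with the astrocyte (0.536) and oligodendrocyte (0.416) lists, and *Rgs7bp* with the astrocyte list (0.465). Within series V and within series A and Z, *Rgs4* had 0.128 and −0.24 with the astrocyte list. It had 0.0497 and −0.269 with the oligodendrocyte list. *Rgs7bp* had 0.331 and −0.0146 with the astrocyte list. *Rgs10* had r = −0.522 (p = 0.00131, adjusted p = 0.00786, rho = −0.578 with p = 0.00034 and adjusted p = 0.00291) with the oligodendrocyte list, where r was −0.571 without the 2 farthest libraries and −0.290 and −0.654 within the series. *Rgs16* had r = 0.540 (p = 0.00071, adjusted p = 0.00609, rho = 0.515 with p = 0.00161 and adjusted p = 0.00743) with the cortical list, where r was 0.509 without the 2 farthest libraries and 0.533 and 0.687 within the series. It also passed with the microglia list (−0.528, and −0.502 and −0.356 within the series). With the astrocyte list it passed too (−0.452, but −0.356 and 0.00579 within the series).

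The relation of *Rgs16* with the cortical list fell to r = 0.386 (adjusted p = 0.0611) without *Htt* Q111/+ *Hdac2* WT replicate 7, an alternative chosen after seeing the data. *Rgs8* (r = −0.474) and *Rgs20* (r = −0.457) also passed with the cortical list, but not without this library (−0.346 and −0.41). This library had a cortical marker sum of 820.4 CPM, against 302 CPM in the next library of its group, and group means from 193 to 308 CPM. *Lamp5* was the most abundant of the 12 cortical markers in every group, and none was at 0. The called members stayed on the same side of the threshold without that library in all 23 called results. The part of cortical tissue in the levels of the members was not tested.

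The other marker lists gave these counts beside the member results. For the average *Hdac2* KO effect 12.9% of all genes were called higher and 12.1% lower. Of 12 MSN markers 2 were called higher and 1 lower for this effect. The higher ones were *Tac1* with 0.29 ± 0.04 and *Ppp1r1b* with 0.28 ± 0.04. *Ppp1r1b* is the gene whose promoter drives the Cre transgene. Of 11 cortical markers tested 1 was higher (*Cux2*, 0.33 ± 0.09) and 1 lower (*Lamp5*, −0.21 ± 0.04). In that list 9 of 11 had a negative value, with a list median of −0.178. Among 8 astrocyte markers *Slc1a2* was lower (−0.19 ± 0.05), among 9 interneuron markers *Nos1* (−0.17 ± 0.05) and *Sst* (−0.11 ± 0.04) were lower, and among 6 choroid plexus and ependymal markers tested *Clic6* was higher (0.39 ± 0.07) although 4 of the 6 were negative. In contrast 1 *Ttr* of that list was called lower (−3.12 ± 1.05, adjusted p = 0.0359), a call that was lost in 6 alternatives and turned to 0.22 with extraction date in the fit. For the average *Hdac2* KO effect edgeR called 0 of 11 oligodendrocyte, 0 of 10 microglia and 0 of 11 endothelial and mural markers. At a nominal p under 0.05 there were 0, 1 and 1, and all 11 endothelial and mural markers were negative. Contrast 2 called *Itgam* of the microglia list lower (−0.19 ± 0.06, adjusted p = 0.0182). Its sign turned with extraction date, within each series and in other alternatives. For the average effect of the Q111 allele, *Aqp4* of the astrocyte list was lower (−0.15 ± 0.03) and *Lamp5* higher (0.15 ± 0.03), against 9 of 11 cortical markers with a negative value and a list median of −0.21. *Lamp5* was not called without *Htt* Q111/+ *Hdac2* WT replicate 7 (0.12). For this effect edgeR called 0 oligodendrocyte, microglia, endothelial, interneuron and choroid plexus markers, with 2, 3, 1, 1 and 1 at a nominal p under 0.05. With extraction date in the fit the *Hdac2* KO calls of *Tac1*, *Cux2*, *Nos1* and *Sst* were lost and the sign of *Slc1a2* turned, whereas *Ppp1r1b*, *Lamp5* and *Clic6* kept theirs. The sign of *Sst* for the average *Hdac2* KO effect turned within series V. The calls of *Aqp4* and *Lamp5* for the Q111 allele were lost within each series. Within series A and Z 0 of 17735 genes were called for the average effect of the allele. DESeq2 counts were not made for these lists, and their part in the member results was not tested.

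The rest of the pathway is given by the lists of its genes. Of 21 other RGS-domain genes 18 were tested for the average *Hdac2* KO effect, and 6 were higher and 2 lower, where 12.9% of all genes were called higher and 12.1% lower. *Rgs19* (0.75 ± 0.07, adjusted p = 5.85e-10), which encodes an RGS protein of Gαi, and *Axin2* (0.25 ± 0.04), a scaffold of Wnt signalling with an RGS domain, were higher, and *Rgs12* (−0.36 ± 0.06, adjusted p = 2.27e-05), a relative of *Rgs14*, was lower. The other lower gene, *Rgs13*, had the largest change of the list (−1.80 ± 0.33, adjusted p = 9.65e-05) at an average log2 CPM of only −2.06, and its call was lost with extraction date in the fit (−1.49, adjusted p = 0.187). *Rgs19* had 0.86 ± 0.09 in contrast 1 and 0.63 ± 0.08 in contrast 2 and kept its calls in each alternative run. *Axin2* and *Rgs12* lost their calls with extraction date in the fit, and *Rgs12* also within series V (−0.18). Contrast 3 called 0 of 18 in edgeR, with 3 at a nominal p under 0.05.

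G protein subunits were taken next. Of 13 alpha subunit genes tested 2 were higher and 1 lower for the average *Hdac2* KO effect, where 25.026% of all genes were called. *Gnao1*, the most abundant Gα of brain membranes and a substrate of most RGS members here, was lower (−0.20 ± 0.03, adjusted p = 2.67e-06), and *Gnas* and *Gnai2* were each higher by 0.12 on the log2 scale (SE 0.02 and 0.03). *Gna11*, which was lower in contrast 2 (−0.08 ± 0.03), was not called for the average effect. Among 14 beta and gamma genes 4 were higher and 1 lower. The median absolute log2 fold change was 0.049 in the alpha list and 0.115 in the beta and gamma list, against 0.082 over all genes. In the latter list *Gng3* (0.25 ± 0.04), *Gng4* (0.22 ± 0.06), the striatal *Gng7* (0.21 ± 0.03) and *Gng10* (0.18 ± 0.03) were higher, and *Gnb4* was higher in contrast 1 (0.31 ± 0.09). With extraction date in the fit each of these calls was lost, and the sign of *Gng3* and of *Gnb4* turned. The Q111 allele changed 1 of these genes on average, *Gng3* (0.14 ± 0.03, adjusted p = 0.0312), and 0 alpha subunit genes in edgeR, with 2 at a nominal p under 0.05.

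Genes of both directions were called among striatal receptors that act through G proteins. For the average effect of the Q111 allele 6 of 21 receptor genes were lower and 2 higher, where 1.27% of all genes were called. The lower ones were *Htr4* (−0.38 ± 0.07), *Gpr6* (−0.26 ± 0.04), *Adora2a* (−0.25 ± 0.05), *Drd1a* (−0.17 ± 0.03), *Drd2* (−0.16 ± 0.03) and *Chrm4* (−0.14 ± 0.03), and the higher ones were the serotonin receptors *Htr2a* (0.38 ± 0.08) and *Htr2c* (0.19 ± 0.04). Contrast 3 called *Gpr6* (−0.33 ± 0.07) and *Drd1a* (−0.22 ± 0.05) lower and *Htr2a* (0.52 ± 0.12) higher. *Drd1a*, *Drd2* and *Adora2a* are also in the MSN list, and within series A and Z alone each of these receptor calls for the Q111 allele was lost. Among all genes, 0 of 17735 were called there for the average effect and 0 of 17538 in contrast 3. The call of *Chrm4* was also lost without *Htt* Q111/+ *Hdac2* WT replicate 7 (−0.14). For *Hdac2* KO on average 4 receptor genes were higher and 9 lower (25.026% of all genes called). The largest of these were *Oprk1* (−0.45 ± 0.07), which encodes the kappa opioid receptor, *Htr2a* (0.47 ± 0.10) and *Gpr149* (0.43 ± 0.09), and the sign of *Gpr149* turned with extraction date in the fit. *Cnr1* was lower in contrast 1 (−0.45 ± 0.15). *Htr2c* was lower on average (−0.36 ± 0.05) and in contrasts 1 (−0.31 ± 0.07) and 2 (−0.43 ± 0.06). *Htr4* was higher on average (0.26 ± 0.09) and in contrast 2 (0.32 ± 0.11), calls that were lost without replicate 7 (0.22 and 0.27). Except for *Oprk1*, each of the receptor calls named for *Hdac2* KO was lost with extraction date in the fit.

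Of 20 effector genes 5 were lower and 1 higher for the average effect of the Q111 allele (1.27% of all genes called), namely *Pde10a* (−0.27 ± 0.04), *Ppp1r1b* (−0.24 ± 0.03), *Pde1b* (−0.21 ± 0.04), *Adcy5* (−0.21 ± 0.04) and *Prkar2b* (−0.10 ± 0.02), with the channel gene *Kcnj3* higher (0.15 ± 0.03). *Pde10a* (−0.33 ± 0.07), *Ppp1r1b* (−0.28 ± 0.05) and *Pde1b* (−0.26 ± 0.06) were also called in contrast 3. For *Hdac2* KO on average 3 effector genes were higher and 4 lower (25.026% of all genes called), while the size of the log2 fold change had a median of 0.048 in this list and 0.082 over all genes. Among them were *Kcnj3* (0.60 ± 0.04), a subunit of the potassium channel that Gβγ opens, and *Plcb1* (−0.32 ± 0.05), the phospholipase downstream of Gαq. *Adcy1* was lower in contrasts 1 (−0.33 ± 0.07) and 2 (−0.21 ± 0.06) and on average (−0.27 ± 0.05). *Ppp1r1b*, *Pde10a* and *Adcy5* are shared with the MSN list, and within series A and Z each of these calls for the Q111 allele was lost. The calls over all genes were 0 of 17735 there for the average effect and 0 of 17538 in contrast 3. Within series A and Z the sign of *Kcnj3* turned in contrast 2 (−0.01), without replicate 7 its call for the Q111 allele was lost (0.12), and with extraction date *Plcb1*, *Kcnj3* and *Adcy1* lost their calls for *Hdac2* KO.

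Other genes had patterns close to those of single members. Over the 35 libraries, with group differences included, 13723 genes were compared with each member by Pearson's r of log2 CPM. For *Rgs14* the top 3 were *Slmap* (r = 0.923), *Ap1ar* (0.921) and *Ptk2b* (0.912), and for *Rgs16* they were *Ifngr2* (0.821), *Gfpt2* (0.777) and *Arhgap44* (0.760). *Rgs9* was most like *Adcy5* (0.923), *Grik2* (0.875) and *Gm12992* (0.861). *Rgs2* was most like *Dusp6* (0.940), *Nr4a1* (0.935) and *Rnd3* (0.935), and r with *Dusp6* was 0.937 within series V and 0.951 within series A and Z. For other members the top gene was *Arpp19* for *Rgs4* (0.881), *Pptc7* for *Rgs8* (0.911), *D430041D05Rik* for *Rgs7bp* (0.921), *Car12* for *Rgs20* (0.874), *Hecw2* for *Rgs7* (0.767) and *Zbtb5* for *Rgs10* (0.656). Within each series these top genes kept an r of 0.456 or more.

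Promoter sequences of RefSeq, build GRCm38.p6, were matched by symbol to 8 of the 10 members with 10 windows, and *Rgs14* and *Rgs20* are named only. The 250 bases before each start were searched on both strands for 7 motifs. These were the cAMP response element TGACGTCA (in 1.55% of 32851 windows of all genes), its half-site TGACG (17.8%), which lies within the full element, the AP-1 site TGAGTCA (4.46%), the GC box GGGCGG (32.7%), the TATA box TATAAA (12.4%), the E box CACGTG (6.02%) and the CCAAT box CCAAT (33.8%). Capitals mark the matches in either direction, and GC boxes can overlap each other. A match is a description of letters and not a site in use. *Rgs4* and *Rgs7bp*, the pair with the highest r, are shown first, from chr1:169747643-169747892 and chr13:105054931-105055180, both on the minus strand. The half-site was found 2 times in *Rgs4* and 1 time in *Rgs7bp*, the CCAAT box 1 time and 2 times, and the TATA box 1 time in *Rgs4* only.
Rgs4: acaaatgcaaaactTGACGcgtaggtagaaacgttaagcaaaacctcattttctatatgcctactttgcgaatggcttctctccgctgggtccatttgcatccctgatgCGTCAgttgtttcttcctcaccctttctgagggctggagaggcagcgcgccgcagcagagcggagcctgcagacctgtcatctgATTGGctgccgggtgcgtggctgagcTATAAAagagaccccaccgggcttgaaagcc
Rgs7bp: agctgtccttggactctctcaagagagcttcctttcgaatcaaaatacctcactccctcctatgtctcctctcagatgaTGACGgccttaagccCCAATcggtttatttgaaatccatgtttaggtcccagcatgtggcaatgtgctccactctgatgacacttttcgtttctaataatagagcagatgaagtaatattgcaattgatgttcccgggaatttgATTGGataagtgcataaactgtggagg

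The windows of the neighbours *Rgs8* and *Rgs16*, which moved in opposite directions with *Hdac2* KO, are at chr1:153652787-153653036 and chr1:153740103-153740352 on the plus strand. *Rgs8* has 2 further starts, and the one shown lies at the start of its entry in the count table. It holds 1 half-site and 0 GC boxes, whereas *Rgs16* holds 2 overlapping GC boxes and 1 CCAAT box. The GC content was 57.2% and 66.4%, against a median of 52.4% over all windows.
Rgs8: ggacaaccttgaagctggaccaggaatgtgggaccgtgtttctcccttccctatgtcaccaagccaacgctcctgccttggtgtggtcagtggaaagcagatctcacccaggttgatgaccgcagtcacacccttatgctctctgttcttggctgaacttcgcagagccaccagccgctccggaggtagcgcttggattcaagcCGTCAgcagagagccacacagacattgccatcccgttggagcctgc
Rgs16: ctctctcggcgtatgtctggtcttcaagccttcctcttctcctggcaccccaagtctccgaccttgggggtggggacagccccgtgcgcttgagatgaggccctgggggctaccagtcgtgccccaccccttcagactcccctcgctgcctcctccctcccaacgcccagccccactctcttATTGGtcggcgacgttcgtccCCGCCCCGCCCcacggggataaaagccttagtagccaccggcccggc

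*Rgs9*, the member called for the Q111 allele, has its window at chr11:109298182-109298431 on the minus strand, with 1 GC box, 1 TATA box 195 bases before the start and 1 CCAAT box 25 bases before it. *Rgs2*, which varied most within groups among members above 10 CPM and was most like *Dusp6* and *Nr4a1*, has its window at chr1:144004150-144004399 on the minus strand, with 2 half-sites, 4 GC boxes and 1 CCAAT box. The full cAMP response element and the AP-1 site were found in 0 of the 10 member windows.
Rgs9: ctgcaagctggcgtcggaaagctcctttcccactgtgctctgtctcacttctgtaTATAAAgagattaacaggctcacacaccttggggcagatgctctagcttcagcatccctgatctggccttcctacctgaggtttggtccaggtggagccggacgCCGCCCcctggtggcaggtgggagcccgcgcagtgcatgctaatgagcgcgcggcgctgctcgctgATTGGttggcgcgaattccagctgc
Rgs2: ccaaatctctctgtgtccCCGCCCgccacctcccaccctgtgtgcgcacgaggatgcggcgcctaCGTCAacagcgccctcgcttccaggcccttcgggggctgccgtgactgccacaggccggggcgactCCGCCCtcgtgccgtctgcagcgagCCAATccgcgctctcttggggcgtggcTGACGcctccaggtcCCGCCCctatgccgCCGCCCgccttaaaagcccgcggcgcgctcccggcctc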

How the data were processed

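Striatal RNA-seq counts of 35 mice were used, read per gene in the table the authors deposited. The authors aligned paired 75 bp reads to GRCm38 with GSNAP (version 2015-06-23) and counted unique alignments per gene of Ensembl 75 with bedtools, and they left out 1 library for its quality. The deposited counts are whole numbers that were not normalized. The table gives 1 interval per gene, so reads in introns may be included. A count of 2 (38841 cells) was more frequent than a count of 1 (17333 cells), so mates may have been counted separately, in which case counts and totals exceed the number of fragments. Whether strand was used in counting is not given in the sources used here, so antisense or overlapping genes cannot be told apart.

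Spike-ins (92 entries), genes spanning up to 250 nt (6152) and 2 mitochondrial rRNA genes were left out. Spike-ins took 0.372 to 1.32% and mitochondrial genes 6.86 to 12.1% of counts. Per contrast, genes had to reach 6 counts in all libraries of 1 or more compared groups and were tested in edgeR 4.0.16 (R 4.3.3), with TMM scaling, 9 surrogate variables from svaseq (sva 3.50.0) and the quasi-likelihood test, adjusted by Benjamini-Hochberg over all genes, threshold 0.05. Each contrast had its own fit, with the libraries of all groups and 22 residual degrees of freedom. The average effects and the interaction came from a separate joint fit of 17346 genes, also with 22 residual degrees of freedom. The test of sex had no surrogate variables. CPM were computed here from the deposited counts. The script was tested on simulated data, where it called 38 of 50 genes changed 1.2-fold in contrast 1, and 8 unchanged genes. The simulated counts had a fixed spread and no effect of ID series, extraction date or sex. These counts therefore need not hold for the real libraries.

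Alternatives were DESeq2 1.42.0, RLE scaling, no filter on low counts, no surrogate variables, or sex, extraction date, ID series or the replicate block in their place, only the groups compared, males only, and each ID series alone. Leaving out 1 or 3 libraries high in cortical markers was chosen after seeing the data. Besides the members, named genes are those called in contrast 3 or for the average effect of the Q111 allele, and up to 3 of each list with the largest log2 fold changes among those called in contrast 1, contrast 2 or the average *Hdac2* KO effect at an average log2 CPM of at least 1. *Rgs13*, below that level, was added after seeing its change. The members and lists were chosen with earlier results of these data known. *Gpr52* and *Slc18a3* were not analysed here, and 1 gene that this rule picks is not reported here.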

Additional observations from a re-analysis of the deposited data

Results flagged for a closer look

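In 4 sets of values 1 library lay far from the other libraries of its group. The summed cortical marker level of *Htt* Q111/+ *Hdac2* WT replicate 7 was 820.4 CPM, against 302 CPM in the next library of that group. The summed astrocyte marker level of *Htt*+/+ *Hdac2* WT replicate 9 was 2938 CPM, against 2677 CPM in the next library. The summed oligodendrocyte marker level of *Htt*+/+ *Hdac2* KO replicate 1 was 10250 CPM, against 7888 CPM in the next library. The summed choroid plexus and ependymal marker level of *Htt*+/+ *Hdac2* WT replicate 1 was 216 CPM, against 72.5 CPM in the next library. Among the 10 RGS members, 0 of 30 sets of a gene and a group held such a library, and 4 of 27 other sets did. Chance flags about 1 in 20 groups. The group of 11 libraries was not examined in this way.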

How the results depend on the processing

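The 23 called member results gave 316 values under alternatives, of which 239 kept direction and call, 74 lost the call and 3 reversed. The 67 results that were not called gave 784 values, of which 43 became calls, 1 reversed with a call and 80 changed sign without one. With RLE scaling or DESeq2 each of the 23 calls was kept, and without *Htt* Q111/+ *Hdac2* WT replicate 7 as well. Extraction date nearly follows *Hdac2* genotype and the ID series follows repeat length, so fits with them cannot tell these apart. Series alone and males alone leave fewer libraries, and *Rgs16* has 124 to 524 counts per library. For the values below the cause was not tested.

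With extraction date in place of surrogate variables, the number of called members was 1 in contrast 1, 0 in contrast 2, 3 in contrast 3, 1 in contrast 5, 1 for the average *Hdac2* KO effect and 3 for the average effect of the Q111 allele. With no surrogate variables, and likewise with sex in their place, it was 2 in contrast 2, 2 in contrast 3 and 2 for the Q111 average. With the ID series in their place it was 4 in contrast 3 and 3 for the Q111 average. Calls over all genes moved too. In contrast 3 they went from 69 to 837 with the ID series, 419 with extraction date and 596 within series V. They were 0 within series A and Z and 0 with only the groups compared. For the Q111 average they went from 220 to 629 with the ID series and 403 with extraction date. Within the series they were 739 (V) and 0 (A and Z). The number of called members within series V was 3 in contrast 1, 1 in contrast 2, 3 in contrast 3 and 5 for the Q111 average. Within series A and Z it was 1 in contrast 2, 0 in contrast 3, 4 in contrast 5, 3 for the *Hdac2* KO average and 0 for the Q111 average. In males only it was 0 in contrast 3 and 4 in contrast 5. It was 2 in contrast 2 with no filter on low counts, 2 for the Q111 average with DESeq2, and 0 in contrast 3 with only the groups compared or without the 3 libraries highest in cortical markers. With gene span in place of exon length 1 of 10 members kept its place in the order of levels. Without replicate 7, 16 of 45 member pairs and 17 of 60 relations with marker lists passed.

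Replicate numbers in the labels share only a number. Over 45 pairs of libraries with the same number r of their deviations ran from −0.206 to 0.289 (median 0.0418), the median over other pairs was −0.00981, and 8 libraries correlated best with their own number. The replicate block gave 2 called members in contrast 2, 0 in contrast 3 and 3 for the Q111 average, with 16 of 23 calls kept.

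Log2 fold changes that reversed with extraction date were *Rgs16* in contrast 2 (−0.15), *Rgs20* for the *Hdac2* KO average (0.0839), *Gng3* for that average (−0.0429) and in contrast 2 (−0.16), *Gnb4* in contrast 1 (−0.0254), *Slc1a2* for the average (0.0712), in contrast 1 (0.0613) and in contrast 2 (0.0767), *Ttr* in contrast 1 (0.22), *Itgam* in contrast 2 (0.40) and *Gpr149* for the average (−0.0627). Within series A and Z those reversed were *Rgs9* in contrast 5 (0.00855), *Slc1a2* in contrast 1 (0.00927), *Itgam* in contrast 2 (0.0502) and *Kcnj3* in contrast 2 (−0.0102). *Itgam* in contrast 2 also reversed with no surrogate variables (0.0317), with ID series (0.0419), within series V (0.0392) and with sex (0.0484). *Sst* reversed within series V for the *Hdac2* KO average (0.0818), and *Rgs2* with only the groups compared in contrast 1 (−0.34, adjusted p = 0.0285).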
